A study of Mus musculus with 6 samples.

Results

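The 40 genes described here drive or mark the cell division cycle, and they were chosen by gene symbol from the 22609 genes counted in each liver library. They comprise 5 cyclin and kinase genes of G1, 3 transcription factors, 11 genes of DNA replication and nucleotide supply (called S-phase members below), 19 genes of mitosis or markers of dividing cells (mitotic members) and 2 inhibitors of cyclin-dependent kinases. RNA was sequenced from adult liver of C57BL/6 mice, with 3 wild type samples and 3 samples from mice that lack Igfbp7, an allele made with Cre-loxP in the same strain. The labels name no Cre driver, sex, age in weeks or feeding state. Nor do they state that each sample is a different mouse, so a p-value here measures only how far these samples spread, which may be technical.

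A resting cell enters the cycle when D-type cyclins with Cdk4 and E-type cyclins release E2F factors, which switch on genes for DNA synthesis. Mitotic genes come on later, under B-Myb and Foxm1, and in resting cells the DREAM complex holds both sets down. Adult hepatocytes divide rarely, and macrophages, lymphocytes and endothelial cells of the liver can divide too. Fewer cycling cells and less RNA per cycling cell cannot be told apart in bulk samples.

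Gene counts per library ran from 16712568 to 22419411. The deleted gene Igfbp7 had 1438, 1705 and 1055 counts in the wild type libraries and 5, 2 and 9 in the knockout libraries. The hepatocyte product Alb stood at 61052 to 85469 CPM (counts scaled to library size with TMM factors) and the hepatocyte factor Hnf4a at 879 to 1261 CPM in the 6 libraries. Wild type replicate 1 stood apart in clock genes: Arntl was at 17.6 CPM there and at 1.91 to 2.85 CPM in the remaining 5 libraries, and Dbp at 10.2 CPM there and at 51.0 to 78.8 CPM in the remaining 5. Values by library are given in replicate order, wild type first.

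Mitotic members were lower in the knockout livers, while S-phase members went both ways. All 19 mitotic members had a lower mean in the knockout, as did 50.2% of all genes with a count in any library. The filter on low counts kept 16 of them. All 16 had a log2 fold change (knockout minus wild type) below 0, which held for 49.7% of the 12522 genes tested, and their median was -1.05, with 0.0013 over all genes tested. Only Kif23 passed an adjusted p of 0.05 (edgeR's quasi-likelihood test, Benjamini-Hochberg over all genes tested), where 0.0878% of all genes tested were called lower. DESeq2 called 3 of the 16 lower (Kif23, Tpx2 and Mki67), where it called 1.66% of genes lower, and limma-voom called 0. For Aurkb and Cdc20 DESeq2 gave no adjusted p, so it did not judge them. Below an unadjusted p of 0.05 stood 8 of the 16, all lower, and 7.35% of all genes tested. In 6 of the 16 every knockout value lay below every wild type value, which held for 10.1% of all genes tested. Among tested genes with a mean of 0.3 to 10 CPM, a range that holds every mitotic member tested, 56.3% had a log2 fold change below 0 and 9.42% were lower below that unadjusted p. A scarce gene can pass the filter through the genotype that holds more of it, so these counts do not stand for all 19.

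The 11 S-phase members all passed the filter. Their median log2 fold change was -0.21, with 7 below 0 and 4 above, against 50.3% of all genes tested above 0. EdgeR called 0 lower and 0 higher, where it called 0.0878% of all genes lower and 0.128% higher. Below an unadjusted p of 0.05 stood 4 lower members (Mcm2, Mcm5, Mcm6 and Rrm1) and 1 higher one (Tk1). Of all genes tested 7.35% were lower and 8.1% higher below that p. In 3 members each knockout value lay below the wild type values and in 2 above them. This held for 10.1% and 10.7% of all genes tested. DESeq2 called Mcm6 lower and Tk1 higher, with 1.66% of genes called lower and 1.84% higher, and limma-voom called 0.

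**Figure D1:**
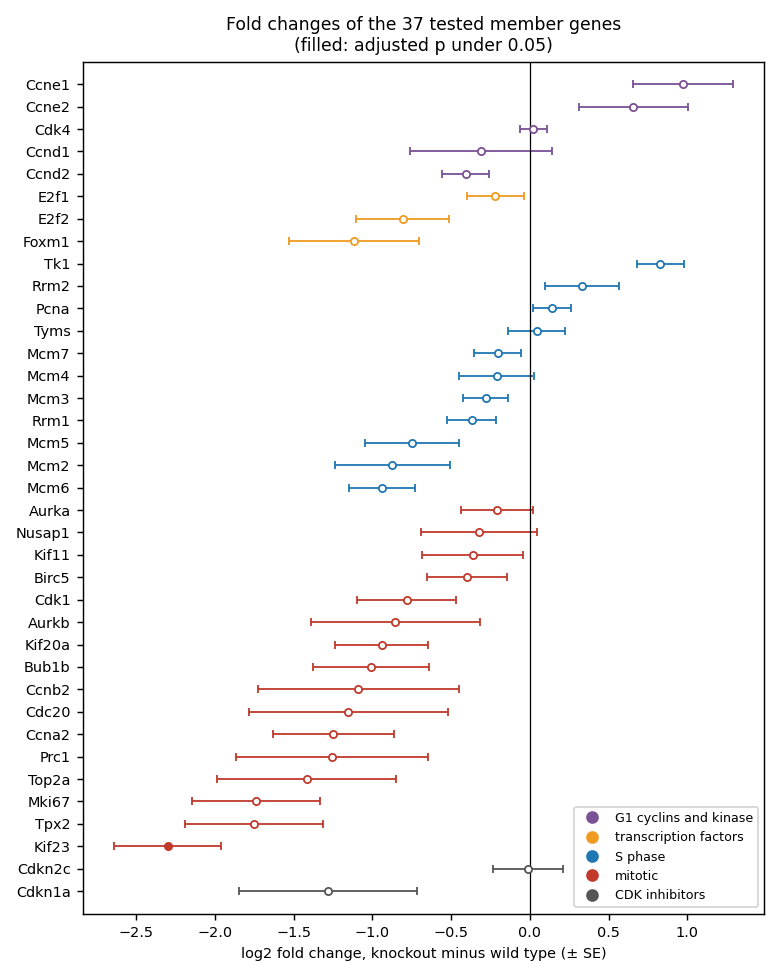
Log2 fold change between genotypes with its standard error for the 37 member genes that passed the filter, coloured by role and ordered by value within a role. Each mitotic member lies left of 0, Kif23 alone is filled for an adjusted p under 0.05, and the S-phase members spread from -0.94 (Mcm6) to 0.83 (Tk1).

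Summed over the 19 mitotic members, wild type replicates 1 to 3 held 41.7, 27.1 and 25.9 CPM and knockout replicates 1 to 3 held 12.7, 11.4 and 21.7 CPM. The genotypes did not overlap, and the knockout mean was 48.3% of the wild type mean. Wild type replicate 1 was the highest library, and knockout replicate 3 came closest to wild type. For the 11 S-phase members the sums were 85.1, 82.4 and 79.9 CPM and 72.9, 79.7 and 88.6 CPM in the same order. These overlapped, with a knockout mean at 97.5% of the wild type mean, but the overlap rests on Tk1. Without Tk1 the other S-phase members summed to 73.6, 71.8 and 68.3 CPM and 57.1, 56.3 and 68.0 CPM, which did not overlap, with a knockout mean at 84.8% of the wild type mean. Knockout replicate 3 then lay just below wild type replicate 3. The ratio of mitotic to S-phase counts within a library, which needs no scaling between libraries, was 0.49, 0.329 and 0.324 for wild type and 0.174, 0.142 and 0.245 for knockout. Each knockout ratio lay below each wild type ratio, and the knockout mean was 49.1% of the wild type mean. With Tk1 left out of the S-phase counts the ratios were 0.566, 0.378 and 0.378 and 0.222, 0.202 and 0.319, again without overlap.

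The spread within each genotype followed particular libraries. Of the 19 mitotic members, 17 were highest in replicate 1 among the wild type livers, and 16 were highest in replicate 3 among the knockout livers. Knockout replicate 3 stood above the lowest wild type value for 11 of the 19, compared with 3 for knockout replicate 1 and 3 for knockout replicate 2. Without knockout replicate 3 the median of the mitotic members was -1.67, with 13 of 17 tested members below an unadjusted p of 0.05. Without wild type replicate 1 it was -0.76, with 4 of 16. The count of 4 S-phase members lower below that p was 1 when wild type replicate 1 was left out and 2 when wild type replicate 2 was. It was 1 when knockout replicate 1 was left out and 2 when knockout replicate 2 was.

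**Figure D2:**
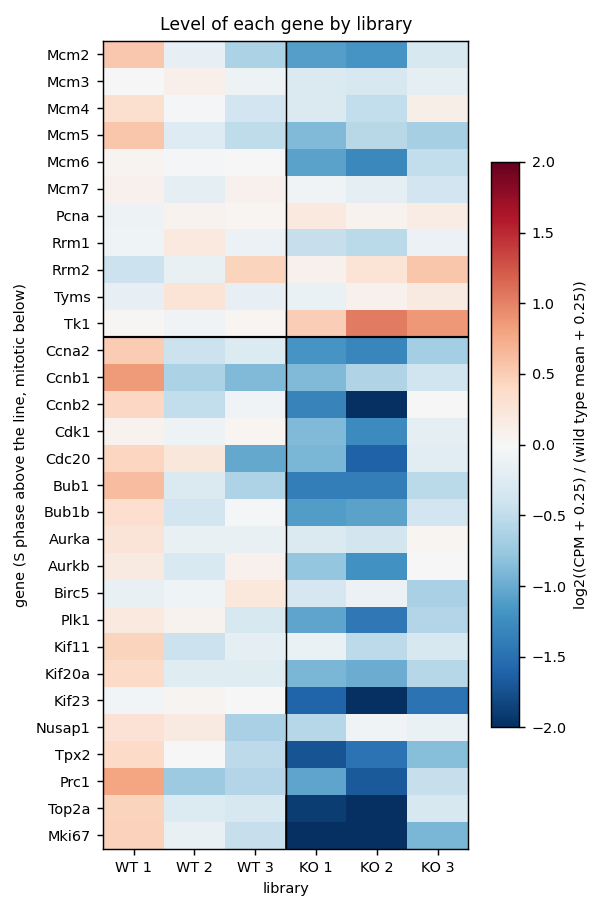
Log2 ratio of each S-phase and mitotic member to its wild type mean, with a pseudocount of 0.25 CPM, in each of the 6 libraries, on a colour scale limited to -2 and 2. The mitotic rows are bluest in knockout replicates 1 and 2 and paler in knockout replicate 3, whereas the S-phase rows hold both reds (Tk1) and blues (Mcm6).

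Kif23 encodes the motor of centralspindlin, which bundles the midzone microtubules for cytokinesis. The wild type libraries held 30, 37 and 29 counts of it and the knockout libraries 8, 3 and 9, or 1.59, 1.73 and 1.67 CPM against 0.379, 0.164 and 0.442 CPM. The genotypes lay far apart, and unlike most mitotic members Kif23 was not highest in wild type replicate 1. Its mean fell from 1.67 ± 0.0680 to 0.328 ± 0.146 CPM (SD, n = 3 in each genotype). This is a log2 fold change of -2.30 ± 0.34 (SE, edgeR adjusted p = 0.0479). The call needs all 6 libraries: with each left out in turn, the edgeR adjusted p ran from 0.0604 to 0.195, at log2 fold changes of -2.56 to -2.01. Kif23 passed the filter (minimum count 10) through the wild type libraries, as each knockout count lay below 10. Of 16 alternatives 5 called it, among them edgeR with no filter (adjusted p = 0.0248).

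Mki67 is the source of the Ki-67 antigen that coats mitotic chromosomes. It stood at 7.92, 5.10 and 4.04 CPM across the wild type livers and 0.994, 1.201 and 2.90 CPM across the knockout livers. Each knockout value was below each wild type value, although the wild type livers were widely spread. The log2 fold change was -1.74 ± 0.41 (SE), not past the threshold by edgeR (adjusted p = 0.114). DESeq2 called it (adjusted p = 0.000988), and the adjusted p over the alternatives tried reached 0.288.

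Tpx2 activates Aurora A kinase at the spindle. It stood at 1.86, 1.36 and 0.866 CPM against 0.237, 0.327 and 0.638 CPM, without overlap. Tpx2 passed the filter through the wild type libraries, with 35, 29 and 15 counts there and 5, 6 and 13 in the knockout libraries. It was not tested with a filter of 1 CPM in 3 libraries. Its log2 fold change was -1.75 ± 0.44 (SE, edgeR adjusted p = 0.126). Ccna2, the cyclin of S phase and G2, stood at 2.55, 1.22 and 1.39 CPM against 0.616, 0.546 and 0.982 CPM, also without overlap, with wild type replicate 1 the highest. Its log2 fold change was -1.25 ± 0.38 (SE, edgeR adjusted p = 0.181). Cdk1, the kinase that drives entry into mitosis, was even among the wild type livers, at 2.71, 2.38 and 2.66 CPM. The knockout livers held 1.28, 0.928 and 2.26 CPM, and only knockout replicate 3 came near the wild type values. Kif20a, a kinesin of the late spindle, was the other tested member without overlap, and it averaged 2.09 ± 0.627 CPM without the deletion and 1.08 ± 0.213 CPM with it (SD, n = 3 each).

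The members least apart from 0 were Aurka, Nusap1, Kif11 and Birc5, with log2 fold changes of -0.21, -0.32, -0.36 and -0.40. Aurka, the Aurora A kinase, stood at 3.24, 2.38 and 2.37 CPM against 2.13, 2.02 and 2.75 CPM, and its values overlapped. The remaining tested members, Aurkb, Bub1b, Ccnb2, Cdc20, Prc1 and Top2a, had log2 fold changes from -1.42 to -0.85 with overlapping genotypes. In Top2a, the topoisomerase that untangles replicated DNA, 1 library made the overlap. It stood at 3.93, 2.29 and 2.19 CPM against 0.568, 0.327 and 2.21 CPM, so knockout replicate 3 lay within the wild type values.

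The 3 mitotic members that the filter removed also had lower means in the knockout. Plk1, the Polo kinase, had 13, 13 and 7 counts in the wild type libraries and 3, 1 and 6 in the knockout libraries, without overlap. Bub1, a kinase of the spindle checkpoint, had 14, 6 and 3 counts against 0, 0 and 4. Ccnb1, the main B-type cyclin, had 11, 1 and 0 counts against 0, 1 and 2, so most of its reads were in wild type replicate 1 and no difference was detectable at this depth. With no filter, edgeR called 0 of these 3, at adjusted p values of 0.195, 0.296 and 0.595.

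**Figure D3:**
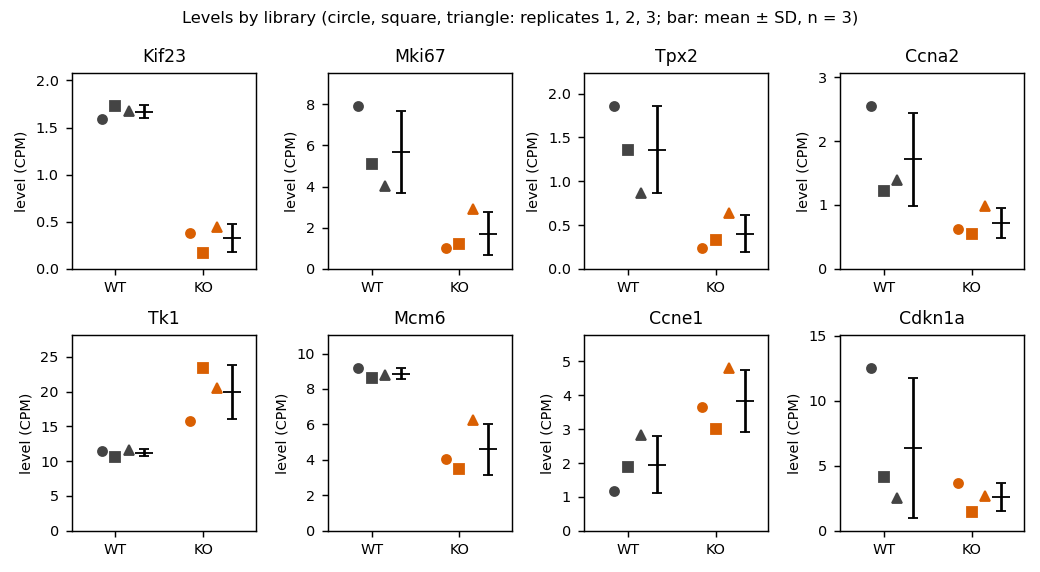
Levels in CPM of 8 member genes in each library, with the mean and SD (n = 3) of each genotype beside the points. Kif23, Mki67, Tpx2, Ccna2 and Mcm6 are lower in each knockout library than in any wild type library, Tk1 and Ccne1 are higher, and wild type replicate 1 alone sets the high wild type mean of Cdkn1a.

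Promoters of the members were searched for 3 motifs known for control of the cycle, and the shares are given as a description with no test. RefSeq promoters (assembly GRCm38.p6, 250 bases before to 50 after the start) were at hand for 31 of the 40 members, and the 5 members with more than 1 promoter were counted as holding a motif if any of theirs did. The cell cycle genes homology region (CHR), read by the MuvB core of DREAM, was searched as TTTGAA or TTCGAA on both strands. It was present in 12 of 15 mitotic members (80.0%), in 2 of 10 S-phase members (20.0%) and in 19.2% of all 32851 promoters in the table. The CCAAT box, read by NF-Y, was searched as CCAAT on both strands and was present in 13 of 15 mitotic and 8 of 10 S-phase members, and in 37.4% of all promoters. The E2F site was searched as TTTGGCGC, TTTCCCGC, TTTGCCGC and TTTCGCGC on both strands, where matches can overlap. It was present in 4 of 10 S-phase members (Mcm3, Mcm5, Mcm6 and Mcm7), in 1 of 15 mitotic members (Cdk1) and in 2.26% of all promoters. The shares of all promoters count each promoter by itself, so they are not the same measure as the shares of members. A match describes these letters only, and binding was not measured.

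The promoters of the called gene Kif23, of Mki67 and Cdk1, and of the S-phase member Mcm6 are shown as examples of promoters with CHR and with E2F letters. All are on the minus strand, 5′ to 3′, with each match to the CHR, CCAAT or E2F letters in capitals. Kif23 lies at chr9:61946750-61947049, Mki67 at chr7:135716330-135716629, Cdk1 at chr10:69352863-69353162 and Mcm6 at chr1:128359656-128359955 (GRCm38.p6). Kif23 has 1 CHR match, Mki67 2 and Cdk1 2, while Mcm6 has 0 CHR and 3 E2F matches, of which 2 overlap.
Kif23: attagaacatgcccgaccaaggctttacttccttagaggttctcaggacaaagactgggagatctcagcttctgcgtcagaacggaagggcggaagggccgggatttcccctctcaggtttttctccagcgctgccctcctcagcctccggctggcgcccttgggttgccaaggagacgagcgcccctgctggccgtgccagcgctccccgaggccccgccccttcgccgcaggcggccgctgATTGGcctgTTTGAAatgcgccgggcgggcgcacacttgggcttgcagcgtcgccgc
Mki67: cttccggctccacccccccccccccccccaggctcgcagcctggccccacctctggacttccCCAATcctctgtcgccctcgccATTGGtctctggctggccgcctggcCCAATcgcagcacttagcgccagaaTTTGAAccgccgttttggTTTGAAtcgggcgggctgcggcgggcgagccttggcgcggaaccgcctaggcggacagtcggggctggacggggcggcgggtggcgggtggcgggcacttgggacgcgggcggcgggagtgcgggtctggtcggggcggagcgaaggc
Cdk1: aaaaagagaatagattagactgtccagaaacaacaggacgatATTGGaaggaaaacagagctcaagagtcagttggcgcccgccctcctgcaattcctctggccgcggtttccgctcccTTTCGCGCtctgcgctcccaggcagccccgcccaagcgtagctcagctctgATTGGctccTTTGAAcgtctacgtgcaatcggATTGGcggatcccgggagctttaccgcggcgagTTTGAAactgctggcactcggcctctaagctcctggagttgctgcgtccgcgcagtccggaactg
Mcm6: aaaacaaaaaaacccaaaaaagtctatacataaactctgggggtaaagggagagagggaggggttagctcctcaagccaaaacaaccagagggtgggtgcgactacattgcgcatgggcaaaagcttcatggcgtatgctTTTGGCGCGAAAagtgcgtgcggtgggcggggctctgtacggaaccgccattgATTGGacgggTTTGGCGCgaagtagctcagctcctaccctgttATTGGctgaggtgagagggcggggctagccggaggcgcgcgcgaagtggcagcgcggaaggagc

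The 6 Mcm members encode the ring that unwinds DNA ahead of the replication fork. All 6 had log2 fold changes below 0, as did 49.7% of all genes tested. Mcm6 stood at 9.20, 8.60 and 8.77 CPM across the wild type livers and 4.07, 3.49 and 6.24 CPM across the knockout livers. The wild type values were tight and each knockout value was lower, with knockout replicate 3 the highest of them. The log2 fold change was -0.94 ± 0.21 (SE), not past the threshold by edgeR (adjusted p = 0.102), while DESeq2 called it (adjusted p = 0.00397, and 0.279 at the most over the alternatives tried). Mcm5 stood at 6.27, 3.46 and 2.89 CPM against 2.18, 2.78 and 2.55 CPM, without overlap, and wild type replicate 1 held 1.98 times the mean of the other wild type livers. Mcm2 stood at 6.17, 3.69 and 2.60 CPM against 1.799, 1.69 and 3.29 CPM, and knockout replicate 3 lay above the lowest wild type liver. Without wild type replicate 1 the log2 fold change of Mcm5 was -0.35 in place of -0.75, and that of Mcm2 was -0.48 in place of -0.87. Mcm3 had a log2 fold change of -0.28 without overlap, while Mcm4 and Mcm7, at -0.21 and -0.20, overlapped.

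Tk1, the cytosolic thymidine kinase that recycles thymidine for DNA synthesis, lay on the other side of 0. It stood at 11.4, 10.7 and 11.5 CPM across the wild type livers and 15.8, 23.4 and 20.6 CPM across the knockout livers, each knockout value above each wild type value. The knockout mean was 1.78 times the wild type mean, at a log2 fold change of 0.83 ± 0.15 (SE, edgeR adjusted p = 0.0690). It passed with DESeq2 (adjusted p = 0.000542), in edgeR with no filter (0.0328) and in edgeR without knockout replicate 1 (0.0423), and its highest adjusted p over the alternatives was 0.254. Tk1 shares 83 exonic bases with Afmid on the opposite strand in the GENCODE M21 annotation. Afmid, an enzyme of tryptophan breakdown, stood at 113, 118 and 108 CPM against 156, 176 and 134 CPM, also without overlap (log2 fold change 0.46 ± 0.11, SE, edgeR adjusted p = 0.120). The sources used here do not give the strand setting of the counting, and the part of Afmid reads in the Tk1 counts was not tested.

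The 4 remaining S-phase members had log2 fold changes from -0.37 to 0.33. Rrm1 and Rrm2 encode the subunits of ribonucleotide reductase, and their values lay on opposite sides of 0. Rrm1 stood at 12.3, 15.01 and 12.0 CPM against 9.47, 8.90 and 12.1 CPM, with overlap and a log2 fold change of -0.37 ± 0.16 (SE, edgeR adjusted p = 0.307). Rrm2 averaged 7.37 ± 2.43 CPM without the deletion and 9.24 ± 1.59 CPM with it (SD, n = 3 each), with overlap. Pcna, the sliding clamp of DNA polymerase, stood at 7.60, 8.56 and 8.37 CPM against 9.38, 8.57 and 9.08 CPM, a difference of 0.14 ± 0.12 (SE) on the log2 scale. Its values just missed overlapping, but the difference is about the size of its standard error. Tyms, thymidylate synthase, had a log2 fold change of 0.04.

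Among the G1 genes, Cdk4 and Ccnd1 had the highest levels per length of all 40 members. In wild type livers Cdk4 stood at 10.03 and Ccnd1 at 9.08 CPM per kilobase of exon (GENCODE M21). The highest S-phase member was Pcna at 3.41 and the highest mitotic member Aurka at 1.05 CPM per kilobase, and Kif23 stood at 0.211. Cdk4, the kinase partner of D-type cyclins, had 32.7, 32.8 and 32.3 CPM against 33.6, 34.0 and 31.7 CPM. Its log2 fold change was 0.02 ± 0.09 (SE) and turned to -0.022 with upper-quartile scaling and -0.027 with total counts, so no direction is given. Cdk4 shares 641 exonic bases with Tspan31 on the opposite strand, which stood at 251 CPM in wild type livers.

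Ccnd1, the cyclin that links growth signals to the cycle, varied widely between knockout livers. It stood at 41.4, 49.1 and 37.7 CPM across the wild type livers and 21.8, 15.4 and 66.0 CPM across the knockout livers, so knockout replicate 3 exceeded each wild type liver and the other two were below all of them. The log2 fold change was -0.31 ± 0.45 (SE). It was -1.19 without knockout replicate 3 and 0.038 without knockout replicate 2, with an adjusted p over the alternatives of 0.0624 to 0.979. Ccnd2, another D-type cyclin, stood at 14.0, 15.4 and 12.2 CPM against 8.71, 11.2 and 11.5 CPM, without overlap (log2 fold change -0.41 ± 0.15, SE, edgeR adjusted p = 0.244).

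The E-type cyclins, which start S phase with Cdk2, had log2 fold changes above 0. Ccne1 stood at 1.17, 1.87 and 2.83 CPM across the wild type livers and 3.65, 3.002 and 4.81 CPM across the knockout livers, without overlap, although knockout replicate 2 was only just above wild type replicate 3. Its mean was 1.95 times the wild type mean, at a log2 fold change of 0.97 ± 0.32 (SE, edgeR adjusted p = 0.201). Ccne2 averaged 0.713 ± 0.0276 CPM without the deletion and 1.13 ± 0.408 CPM with it (SD, n = 3 each), with overlap. Of the 5 G1 members edgeR, DESeq2 and limma-voom each called 0, and Ccne1 (higher) and Ccnd2 (lower) stood below an unadjusted p of 0.05 by edgeR. Of all genes tested 8.1% were higher and 7.35% lower below that p.

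All 3 transcription factors had log2 fold changes below 0, as did 49.7% of all genes tested. Foxm1, the forkhead factor of mitotic genes, stood at 1.12, 0.608 and 0.808 CPM against 0.379, 0.218 and 0.540 CPM. Each knockout level was below the lowest wild type level, and the log2 fold change was -1.12 ± 0.41 (SE, edgeR adjusted p = 0.247). Foxm1 had 21, 13 and 14 counts in the wild type libraries and 8, 4 and 11 in the knockout libraries. It thus passed the filter through the wild type libraries, and it was not tested with a filter of 1 CPM in 3 libraries or with thinned counts. E2f2, an activating E2F, stood at 3.08, 4.44 and 4.62 CPM against 1.56, 2.02 and 3.34 CPM, with an overlap through knockout replicate 3 (log2 fold change -0.81 ± 0.30, SE, edgeR adjusted p = 0.248). E2f1, also an activator, stood at 4.09, 3.74 and 3.23 CPM against 3.03, 2.95 and 3.54 CPM, with overlap. EdgeR, DESeq2 and limma-voom each called 0 of the 3, but DESeq2 gave no adjusted p for Foxm1 and so did not judge it. Foxm1 and E2f2 stood below an unadjusted p of 0.05 by edgeR, where 7.35% of all genes tested were lower.

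Cdkn1a encodes p21, the inhibitor that p53 induces to halt the cycle. It stood at 12.5, 4.12 and 2.54 CPM across the wild type livers and 3.65, 1.47 and 2.70 CPM across the knockout livers. Wild type replicate 1, the library apart in clock genes, held 3.77 times the mean of the other wild type livers, and the remaining 5 libraries overlapped. The log2 fold change was -1.28 ± 0.57 (SE, edgeR adjusted p = 0.325), and it was -0.35 without wild type replicate 1. Cdkn2c, the p18 inhibitor of Cdk4 and Cdk6, stood at 3.99, 3.79 and 5.77 CPM against 3.79, 5.35 and 4.27 CPM, with overlap, and its log2 fold change of -0.01 ± 0.22 (SE) took either sign over the alternatives. EdgeR, DESeq2 and limma-voom each called 0 of these inhibitors, and 0 stood below an unadjusted p of 0.05 by edgeR.

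Other genes of the cycle were taken from lists that hold none of the 40. Of 70 further mitosis genes 43 passed the filter, with 37 log2 fold changes below 0, 6 above and a median of -0.44. Over all genes tested 49.7% were below 0, and 56.3% of those with a mean of 0.3 to 10 CPM. EdgeR, DESeq2 and limma-voom each called 0. Below an unadjusted p of 0.05 by edgeR stood 11 lower and 0 higher genes, with 7.35% of all genes tested lower there and 9.42% in that range of CPM. Counting all 70, 64 had a lower mean in the knockout, as did 50.2% of all genes with a count. The lowest p values belonged to Cenpf, a kinetochore protein, and Cdca5, the cohesin regulator sororin, neither past the threshold. Both are scarce, and a scarce gene can pass the filter through the genotype that holds more of it. Cenpf averaged 0.842 ± 0.206 CPM without the deletion and 0.229 ± 0.112 CPM with it (SD, n = 3 each). Cdca5 averaged 0.756 ± 0.130 CPM without the deletion and 0.318 ± 0.156 CPM with it (SD, n = 3 each).

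Of 46 further replication genes 41 were tested, with 27 log2 fold changes below 0, 14 above and a median of -0.06. Over all genes tested 49.7% were below 0. EdgeR, DESeq2 and limma-voom each called 0, and 4 lower and 0 higher genes stood below an unadjusted p of 0.05 by edgeR. Of all genes tested 7.35% were lower and 8.1% higher below that p. The log2 fold change of Pold3, a subunit of DNA polymerase delta, was -0.38 ± 0.14 (SE) and that of Fen1, the flap endonuclease, -0.46 ± 0.17 (SE), neither past the threshold.

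Of 34 further G1 and checkpoint regulators 30 were tested, with 8 log2 fold changes below 0, 22 above and a median of 0.09. Over all genes tested 50.3% were above 0. EdgeR, DESeq2 and limma-voom each called 0, and 1 lower and 3 higher genes stood below an unadjusted p of 0.05 by edgeR. Of all genes tested 7.35% were lower and 8.1% higher below that p. Wee1, the kinase that holds Cdk1 inactive and a known target of the circadian clock, had the lowest p. It stood at 3.67, 8.88 and 14.8 CPM across the wild type livers and 20.1, 24.0 and 29.0 CPM across the knockout livers, without overlap (log2 fold change 1.43 ± 0.39, SE, edgeR adjusted p = 0.144). Its lowest value was in wild type replicate 1, where Arntl was highest, and without that library the log2 fold change was 1.05. The part of the clock in the Wee1 difference was not tested. Rbl2, the p130 pocket protein of the DREAM complex, averaged 57.6 ± 2.09 CPM without the deletion and 70.7 ± 10.1 CPM with it (SD, n = 3 each), not past the threshold. Of 26 genes for p53 and its targets 25 were tested, with 14 log2 fold changes below 0 and a median of -0.05. Over all genes tested 49.7% lay below 0. EdgeR, DESeq2 and limma-voom each called 0, and 0 stood below an unadjusted p of 0.05 by edgeR. Gadd45a, at 0.61 ± 0.28 (SE), and Eda2r, at -0.59 ± 0.27 (SE), came nearest.

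Levels of macrophage markers were lower in the same livers as the mitotic members. All 14 Kupffer cell and macrophage markers in the files had log2 fold changes below 0, 13 of them without overlap between the genotypes, where 49.7% of all genes tested lay below 0 and 10.1% were lower without overlap. EdgeR called 0, with 14 below an unadjusted p of 0.05 (7.35% of all genes tested were lower there), DESeq2 called 11 lower (1.66% of all genes tested) and limma-voom 0. Their summed level was 958, 912 and 833 CPM for wild type and 525, 461 and 696 CPM for knockout, with knockout replicate 3 closest to wild type, as for the mitotic members. Clec4f, which defines Kupffer cells, ran from 171 to 188 CPM in wild type and from 95.7 to 157 CPM in knockout livers, and 0 of the markers were at 0 in all libraries. As a percentage of the summed macrophage level, the mitotic level was 4.35, 2.98 and 3.10% for wild type and 2.42, 2.46 and 3.12% for knockout. Here the genotypes overlapped through knockout replicate 3, with means of 3.48% for wild type and 2.67% for knockout. The S-phase level, Tk1 included, was 8.88, 9.04 and 9.59% and 13.9, 17.3 and 12.7% of the macrophage level, without overlap and higher in the knockout. The part of macrophages in the mitotic difference was not tested.

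**Figure D4:**
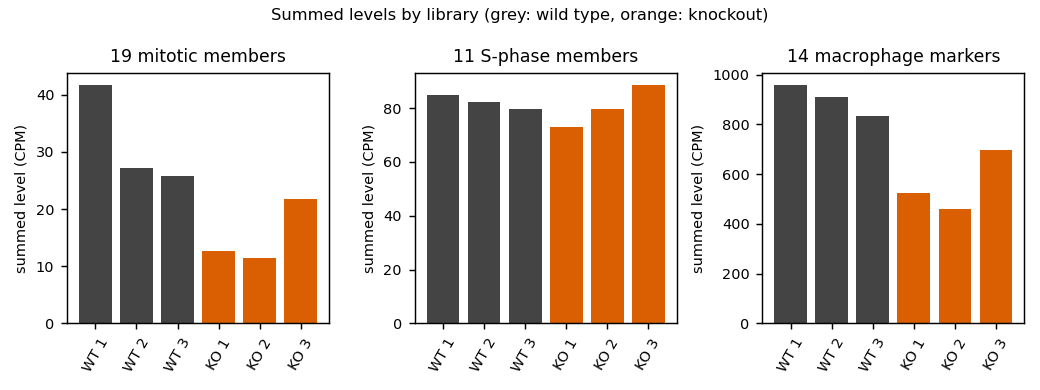
Summed level in CPM of the 19 mitotic members, the 11 S-phase members and the 14 macrophage markers in each library, with bars from 0. Mitotic members and macrophage markers are lower in the 3 knockout libraries, with knockout replicate 3 the highest of these, while the S-phase bars, Tk1 included, overlap.

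Markers of other cells that could divide or enter with blood varied in their own ways. The 12 T and NK cell markers summed to 9.64 to 12.8 CPM in wild type and 4.57 to 7.43 CPM in knockout livers, without overlap. There knockout replicate 3 was the lowest library, whereas for the mitotic members it was the highest knockout library. The 7 B and plasma cell markers summed to 4.85 to 6.65 against 3.55 to 4.27 CPM, also without overlap, and the 8 neutrophil markers to 0.655 to 2.34 against 0.655 to 0.8997 CPM, with overlap. Of 9 erythroid markers, Hba-a1, Hba-a2, Hbb-b1 and Hbb-b2 were listed at 0 in every library, and the sum was 231 to 265 against 209 to 242 CPM, with overlap. The 9 endothelial markers (471 to 488 against 434 to 525 CPM) and the 9 stellate cell markers (310.0 to 394 against 258 to 395 CPM) overlapped, while the 7 cholangiocyte markers did not (94.2 to 125 against 65.2 to 77.04 CPM). That gap rests on Spp1, a secreted matrix protein: the other 6 summed to 28.4, 23.9 and 30.4 CPM and 26.1, 23.3 and 20.6 CPM, which overlapped. The 14 hepatocyte markers summed to 116346 to 136854 against 128370 to 151725 CPM, with overlap. The part of any of these cell types in the mitotic difference was not tested.

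By the RefSeq table of GRCm38.p6, 17 of the 40 members overlap another gene in position, 13 of them a protein-coding gene. Of the 17, 12 share exonic bases with it in GENCODE M21 and 3 (Aurka, E2f1 and Tpx2) share 0. For 2 (Kif11 and Top2a) the partner was not matched in GENCODE M21. Reads on several genes were set apart from the gene counts, so a read in shared bases may be lost to both genes. How such reads were counted depends on the strand setting and annotation, which are not given here. Kif23, Mki67, Mcm6, Mcm5, Cdk1 and Ccne1 overlap no other gene in that table. Ccna2 shares 510 exonic bases with Exosc9, whose log2 fold change was -0.28 ± 0.14 (SE), and Kif20a shares 1271 with Cdc23, at -0.0054 ± 0.13 (SE). Prc1 shares 911 with Rccd1, at 0.26 ± 0.19 (SE), and Ccnd1 shares 1100 with Oraov1, at 0.08 ± 0.14 (SE). None of these 4 partners passed the threshold.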

How the data were processed

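Liver RNA of 6 samples was prepared with the Illumina TruSeq kit, per the labels' protocols. The authors deposited whole-number read counts for each gene symbol, with 1 table for each library. CASAVA 1.8.2, TopHat2 2.0.8b and HTSeq appear in the submitters' processing notes, as do the builds mm9 and hg19, with no role named. Sources used here do not state the annotation or the strand setting. The last 5 rows of a table name no gene and were left out. Reads outside genes made up 9.65% to 11.30% of uniquely placed reads in wild type and 11.33% to 12.5% in knockout libraries, without overlap. Reads on several genes made up 0.594% to 0.662%. Alignments that were not unique stood at 1.49 to 2.65 per gene count, highest in knockout replicate 2. The part of these in the gene differences was not tested.

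The main test was edgeR 4.0.16 (R 4.3.3) with filterByExpr (minimum count 10, leaving 12522 of 22609 genes), TMM scaling, a quasi-likelihood fit on genotype alone and Benjamini-Hochberg adjustment at 0.05. It was tested on simulated data. Standard errors are the log2 fold change over the root of the F statistic. Alternatives were DESeq2 1.42.0, limma 3.58.1 (voom), other scalings and filters, robust estimation, a replicate block, thinned counts and each library left out.

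The members and gene lists were chosen with earlier results of these data known. Values by sample are given for members past the threshold, the 4 mitotic, 4 S-phase and 4 other members of lowest p, and the 3 of highest mean CPM per role. Other lists give up to 4 genes past the threshold or, with none, the 2 of lowest p. Top2a, the 3 untested members, marker and clock genes and overlapping genes were chosen after their values were seen. Exon lengths (GENCODE M21) and promoters (RefSeq) are of GRCm38, which is not a build in those notes.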

Additional observations from a re-analysis of the deposited data

How the results depend on the processing

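The 27 genes called among all tested became 133 with no filter, 438 with DESeq2, 68 with robust edgeR estimation and 3 to 36 when each library was left out. The 1 member called lower by edgeR, Kif23, gave way to 0 with total counts, with a filter of 1 CPM in 3 libraries, with limma-voom, with thinned counts and in each fit without 1 library (0 to 0). DESeq2 called 4 members lower. The 0 members called higher became 1 (Tk1) with no filter and 1 with DESeq2, and 0 to 1 with a library left out. The mitotic median of -1.05 ran from -1.67 (without knockout replicate 3) to -0.76 (without wild type replicate 1), and from -1.16 to -1.01 where all libraries were kept. The S-phase median ran from -0.33 to -0.16 without 1 library. The ratio of mitotic to S-phase counts (0.491, knockout over wild type) was 0.416 to 0.574 without 1 library, 0.554 without Top2a and Mki67 and 0.501 with pooled counts. Leaving out Tk1, chosen after seeing the data, moved this ratio to 0.562 and the summed S-phase level from 97.5% to 84.8% of wild type, and leaving out Spp1 moved the cholangiocyte sum from 63.5% to 84.7%. Ccnd1 ran from -1.19 without knockout replicate 3 to 0.038 without knockout replicate 2. Cdk4 turned to -0.022 with upper-quartile scaling and -0.027 with total counts. Cdkn2c turned to 0.0018 with limma-voom and to 0.198, 0.095 and 0.019 without wild type replicate 3, knockout replicate 1 and knockout replicate 3. The causes of these changes were not tested.

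With the replicate number as a block, edgeR called 1 gene in all and 0 members. Libraries of the same number did not deviate together over all genes tested (correlations of -0.083, -0.098 and -0.041). Pairs of unlike number ran from -0.051 to 0.125. A shared batch that touches few genes could not be seen this way, so whether they share more than a number is not settled. With 3 samples a group and few counts for most mitotic members, smaller differences were not detectable.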
